A study of Ovis aries with 9 samples.

Results

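The miRNAs described here are those that lie in and beside RTL1, an imprinted gene in the DLK1-DIO3 domain, with oar-mir-127 the best known of them. They were chosen by name: a deposited sequence counted when its annotation named oar-mir-127, oar-mir-136, oar-mir-370, oar-mir-431, oar-mir-432, oar-mir-433, oar-mir-493 or oar-mir-665, on either arm. Of these 8 names, 7 were present, out of 105 ovine miRNA names in the tables. These 7 were found in each library, and oar-mir-665 had no read in its own direction. Small RNA was sequenced from semen sperm of wild-type F1 rams (Ovis aries) after a lysis step against somatic cells, with NEBNext small RNA libraries cut to small RNA sizes. The rams fall into 3 groups, labelled OVER (over feeding), RES (restricted feeding) and CON (standard feeding), and the series title places the feeding in the mothers' gestation. The labels give 3 samples for each group, 9 in all, but the 3 tables of a group hold the same sequences with the same read counts, so each group was counted as 1 library. Whether that is the library of 1 ram, a pool of rams, or 1 table entered for 3 samples cannot be told. There is therefore no replicate error and no test between groups, and every interval below is an exact Clopper-Pearson 95% interval that covers counting error only.

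Imprinted genes are expressed from the chromosome of one parent. In mammals RTL1 mRNA, made from a retrotransposon-derived gene needed for the placenta, comes from the paternal chromosome, while the maternal chromosome makes a transcript of the opposite strand that carries miRNAs. Because these miRNAs are copied from the strand opposite to RTL1, they pair with its mRNA along their whole length, and in sheep and mouse such pairing leads to cleavage of RTL1 mRNA. In sheep this domain is also known from the callipyge mutation, which causes muscle overgrowth. In the RefSeq annotation of the sheep assembly ARS-UI_Ramb_v3.0 all 8 names lie on chromosome 18 between DLK1 and DIO3. The genes of oar-mir-431, oar-mir-433, oar-mir-127, oar-mir-432 and oar-mir-136, in that order, lie inside RTL1, and so 5 of the 8 fit the name anti-RTL1 in the strict sense. The genes of oar-mir-493 and oar-mir-665 lie on the DLK1 side of RTL1, and that of oar-mir-370 lies on the DIO3 side. Coordinates are not given, since no source used here names the build of the deposited tables.

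The sequences below are the reads that carry the results. They are written as DNA letters from 5′ to 3′ as deposited, with the seed in capitals, which is bases 2 to 8, the part of a miRNA that chiefly selects its targets. The first 6 are forms of the 3′ arm of miR-127 that share 1 start and 1 seed and differ in where they end. The next 4 show the 2 commonest starts on each arm of miR-136, which have 4 different seeds. The last 2 are the commonest reads of oar-mir-432 and oar-mir-493. The 22 nt, 16 nt and 24 nt forms of miR-127 and all but the first of the miR-136 reads were picked after their values were seen.
miR-127, 20 nt form: tCGGATCCgtctgagcttgg
miR-127, 19 nt form: tCGGATCCgtctgagcttg
miR-127, 23 nt form: tCGGATCCgtctgagcttggctt
miR-127, 22 nt form: tCGGATCCgtctgagcttggct
miR-127, 16 nt form: tCGGATCCgtctgagc
miR-127, 24 nt form, not annotated: tCGGATCCgtctgagcttggcttt
miR-136, 3′ arm: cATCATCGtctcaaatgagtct
miR-136, 3′ arm, start 1 base later: aTCATCGTctcaaatgagtct
miR-136, 5′ arm: aCTCCATTtgttttgatgatgg
miR-136, 5′ arm, start 3 bases earlier: aGGACTCCatttgttttgatga
miR-432, 5′ arm: tCTTGGAGtaggtcattgggt
miR-493, 5′ arm: tTGTACATggtaggctttcat

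The libraries held 8287937 reads in OVER, 13160116 in RES and 9983895 in CON, of which 1380832, 1528187 and 839260 in the same order carried an miRNA annotation. The miRNA class was 16.7% of the OVER library, 11.6% of the RES library and 8.41% of the CON library, so that a value relative to all reads (RPM, reads per 1000000 reads) and a value within the miRNA class can differ. Levels within the class are given in CPM, reads per 1000000 miRNA reads after TMM scaling in edgeR (a trimmed mean of the log ratios), which assumes that most miRNAs are alike between libraries. The same value without the TMM factor is called unscaled CPM. Reads of 20 nt or shorter made up 29.6% of all reads in OVER, 10.3% in RES and 5.98% in CON. Of 24 miRNA markers of cell types, 6 have an ovine name here and can be read. The germ cell marker oar-mir-191 stood at 32096 CPM in OVER, 80959 CPM in RES and 49930 CPM in CON, and the 3 epithelial markers of the oar-mir-200 family summed to 5380 CPM in OVER, 1432 CPM in RES and 5422 CPM in CON. The white blood cell marker oar-mir-150 had 5.94 CPM in OVER, 30.1 CPM in RES and 14 CPM in CON, and the muscle marker oar-mir-133 had 0 reads in OVER, 17 in RES and 2 in CON. Their part in the values below was not tested.

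Together the miRNAs in and beside RTL1 were a small part of the sperm miRNAs, and oar-mir-127 and oar-mir-136 made up nearly all of it. The 7 summed to 2374 reads in OVER, 590 in RES and 558 in CON. That is 0.172% of miRNA reads in OVER, 0.0386% in RES and 0.0665% in CON. The pair of oar-mir-127 and oar-mir-136 held 2320 of these reads in OVER, 551 in RES and 523 in CON. The other DLK1-DIO3 miRNAs, which lie further towards DIO3, held far more, with 3.19% of miRNA reads in OVER, 3.22% in RES and 2.60% in CON. All sequences of the 7 carried a single miRNA name and were flagged as matching the genome. That flag does not ask for identity, since all 15 sequences that differ by 1 base from the 20 nt form of miR-127 also carry it.

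**Figure D1:**
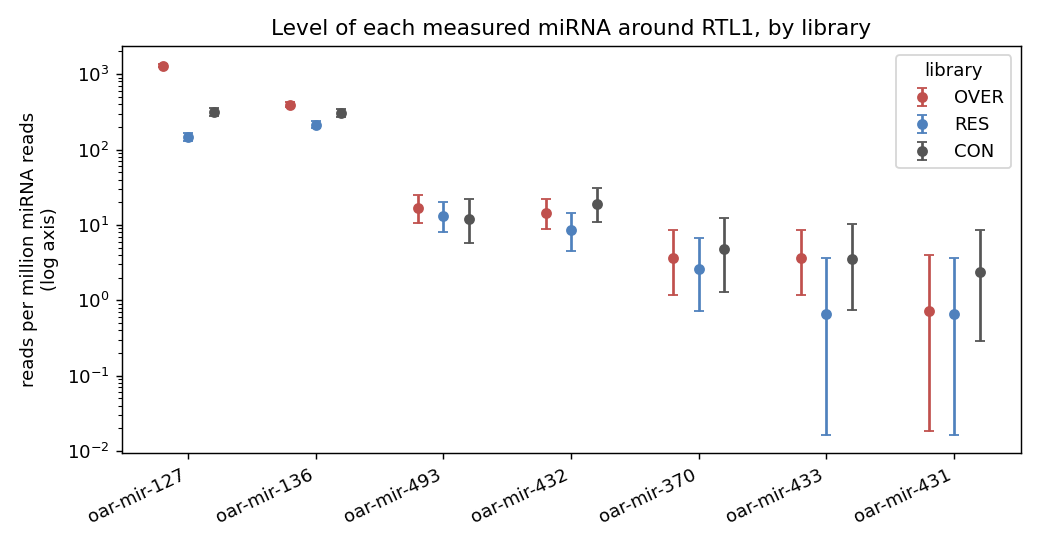
Level in unscaled CPM (log axis, no TMM factor) of the 7 measured miRNAs in the OVER, RES and CON libraries. Points are single libraries and bars are 95% counting intervals. oar-mir-127 and oar-mir-136 lie between 147 and 1286, while the other 5 lie at 19.1 or lower, with bars that overlap between libraries.

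oar-mir-127, which in human cells is known to repress the oncogene BCL6, was the one of the 7 whose level differed most between the libraries. It had 1776 reads in OVER, 225 in RES and 268 in CON. Within the miRNA class this is 1054 CPM in OVER, 183 CPM in RES and 314 CPM in CON. The order of the libraries was thus OVER, CON, RES, and no counting interval of the share of miRNA reads overlapped another: 1227 to 1347 unscaled CPM in OVER, 129 to 168 in RES and 282 to 360 in CON. Among the 105 ovine-named miRNAs it ranked 34 by reads in OVER, 51 in RES and 44 in CON.

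In OVER the CPM of oar-mir-127 was 3.36-fold that in CON, a log2 ratio of 1.75 with a counting interval of 1.56 to 1.94. Of the 76 miRNAs that reached 100 reads over this pair of libraries, 8 stood 2-fold or more above CON in OVER (10.5%) and 7 were lower by as much (9.21%), together 19.7%. Of the miRNAs around RTL1 only oar-mir-127 and oar-mir-136 had that many reads, and 1 of these 2 was at least 2-fold higher. The ratio of oar-mir-127 ranked 2 of 76, under that of oar-mir-30b (2.12), named after its value was seen. In RPM it had 214 in OVER and 26.8 in CON, a log2 ratio of 3.0. On that scale the median of the 76 was 1.28, and 49 were 2-fold higher (64.5%) and 0 lower (0%). As a plain share of miRNA reads without TMM, the split was 15 higher and 4 lower. These are counts of names, and a read with more than 1 name counts for each. With such reads split equally between names, 14 of 74 were at least 2-fold apart in CPM, 6 higher and 8 lower. The epithelial markers, summed with shared reads counted for each name, stood at 5380 CPM in OVER and 5422 CPM in CON, and their part was not tested.

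In RES the CPM of oar-mir-127 was 0.583 times that in CON, a log2 ratio of -0.78 with an interval of -1.04 to -0.52. This is within 2-fold, and of the 74 miRNAs compared 2.70% were 2-fold or more above CON and 18.9% that far below it, together 21.6%. oar-mir-127 ranked 19 from the lowest. As a plain share of miRNA reads the log2 ratio was -1.12, past 2-fold, and that split was 0 higher and 19 lower against 2 and 14 with TMM. In RPM oar-mir-127 had 17.1 in RES and 26.8 in CON, a log2 ratio of -0.65, where 4.05% of the 74 were 2-fold higher and 17.6% lower. The epithelial markers, summed with shared reads counted for each name, stood at 1432 CPM in RES and 5422 CPM in CON, and their part was not tested.

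Between the diet groups oar-mir-127 had a CPM in OVER 5.77-fold that in RES (log2 ratio 2.53, 2.33 to 2.73), among the highest ratios of the 80 miRNAs compared. Its interval overlaps those of oar-mir-221 (2.46, 2.13 to 2.81) and oar-mir-181a-2 (2.46, 1.76 to 3.23). It also overlaps those of oar-mir-181a-1 (2.19, 1.53 to 2.91), oar-mir-200b (2.20, 2.05 to 2.35) and oar-mir-200c (2.20, 2.06 to 2.35). All of these were named here after their values were seen. The epithelial markers, summed with shared reads counted for each name, stood at 5380 CPM in OVER and 1432 CPM in RES, and their part was not tested. Of the 80, 18.8% stood 2-fold or more above RES in OVER and 8.75% that far below it, together 27.5%. In RPM the log2 ratio was 3.65, with 52 miRNAs 2-fold higher (65.0%) and 1 lower (1.25%), together 66.2%, and without TMM it was 3.13 with 29 higher and 4 lower.

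oar-mir-136, the neighbour of oar-mir-127 inside RTL1, differed less between the libraries. It had 394 unscaled CPM in OVER, 213 in RES and 304 in CON. With TMM its log2 ratio of CPM was 0.11 for OVER against CON (-0.10 to 0.33) and -0.17 for RES against CON (-0.41 to 0.07). Both intervals include 0, and both values are near the medians of all miRNAs compared, 0.03 and 0.02. For OVER against RES it was 0.29 (0.08 to 0.49), or 0.13 (-0.07 to 0.33) with TMM factors from those libraries alone. As a plain share of miRNA reads the log2 ratios were 0.37 for OVER against CON, -0.51 for RES against CON and 0.89 for OVER against RES, with intervals that leave out 0. With DESeq2 size factors they were 0.08, -0.13 and 0.21 in the same order, so whether the intervals reach 0 depends on the scaling. In RPM it had 65.6 in OVER, 24.8 in RES and 25.5 in CON, and its log2 ratio of 1.36 for OVER against CON was near the median of 1.28 over all miRNAs. OVER and RES are both set against the same CON library in these values.

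**Figure D2:**
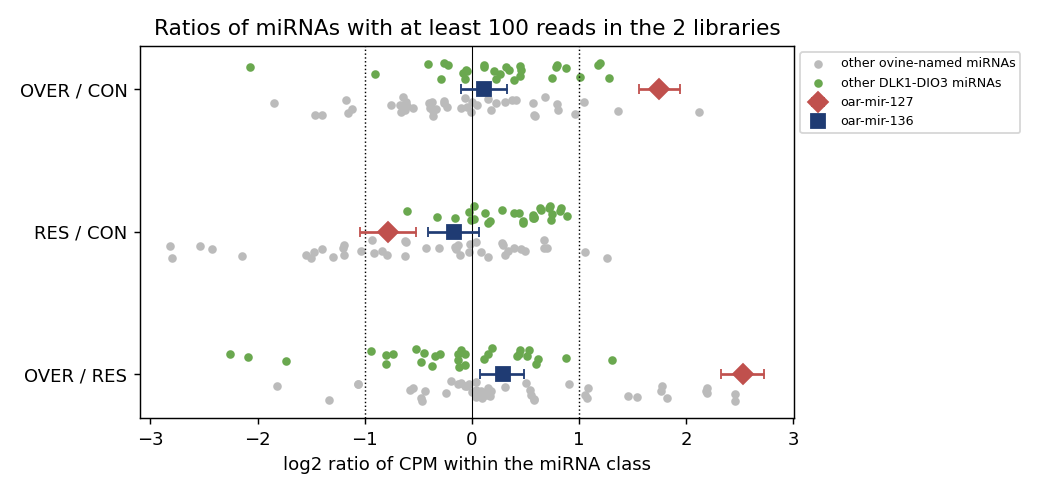
Log2 ratio of CPM for every miRNA with at least 100 reads in the 2 libraries compared, with OVER over CON at the top. oar-mir-127 (diamond) and oar-mir-136 (square) have 95% counting intervals, green points are other DLK1-DIO3 miRNAs, grey points are all others, and dotted lines mark 2-fold. oar-mir-127 lies at 1.75, -0.78 and 2.53 from top to bottom, and oar-mir-136 at 0.11, -0.17 and 0.29.

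A ratio of these neighbours needs no scaling between libraries. Of the reads named for either, oar-mir-127 held 76.6% in OVER (74.8 to 78.3%), 40.8% in RES (36.7 to 45.1%) and 51.2% in CON (46.9 to 55.6%). The 3 intervals do not overlap. With reads of 21 nt or longer alone, the share was 31.3% in OVER (28.1 to 34.7%), 25.4% in RES (21.3 to 29.8%) and 29.3% in CON (24.7 to 34.3%). These intervals overlap. Counted by their first 16 nt, whether annotated or not, the long reads gave 56.2% in OVER (52.9 to 59.6%), 52.4% in RES (48.1 to 56.8%) and 64.9% in CON (60.6 to 69.0%), where OVER is below CON. Reads of all lengths counted in this way gave 83.8% in OVER (82.3 to 85.3%), 60.6% in RES (56.7 to 64.4%) and 73.2% in CON (69.7 to 76.5%), where OVER is highest.

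The reads named oar-mir-127 were shorter on average than those of oar-mir-136, and shortest in OVER. Among reads that carry the name the commonest length was 20 nt in each library. It held 70.3% of oar-mir-127 reads in OVER (68.1 to 72.4%), 38.7% in RES (32.3 to 45.4%) and 51.1% in CON (45.0 to 57.2%). The 23 nt reads went the other way, with 4.50% in OVER, 23.1% in RES and 25.4% in CON. Mean length was 19.99 nt in OVER, 20.87 nt in RES and 20.86 nt in CON. The oar-mir-136 reads, by contrast, were mostly 22 nt long, with 74.8% in OVER, 83.1% in RES and 78.0% in CON.

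Single sequences showed the same division in part. The 20 nt form of miR-127 had 1225 reads in OVER, 84 in RES and 135 in CON, and as a share of miRNA reads (without TMM) it was 5.52-fold that of CON in OVER. The 19 nt form had 207 reads in OVER, 18 in RES and 22 in CON, with a share 5.72-fold that of CON in OVER. The 16 nt form had 67 reads in OVER, 11 in RES and 4 in CON. The 23 nt form had 75 reads in OVER, 48 in RES and 62 in CON, and its share in OVER was 0.735 times that in CON. The 22 nt form had 60 reads in OVER, 33 in RES and 19 in CON, with a share of miRNA reads in OVER 1.92-fold that in CON. Of oar-mir-127 reads alone it held 3.38% in OVER and 7.09% in CON. A 21 nt form, the 20 nt form followed by A, had 28 reads in OVER, 6 in RES and 3 in CON. Its share of miRNA reads was 5.67-fold that of CON in OVER, and it was picked after its values were seen. Nearly all reads kept the same 5′ end and so the same seed: 98.8% of 3′ arm reads began at that base in OVER, 98.7% in RES and 98.5% in CON. Forms therefore differed at the 3′ end.

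Reads of 20 nt or shorter made up 86.2% of oar-mir-127 in OVER (84.5 to 87.8%), 52.0% in RES (45.3 to 58.7%) and 60.8% in CON (54.7 to 66.7%), counting reads that carry the name. Counted by the first 16 nt, with the unannotated reads described further on, the share was 75.5% in OVER (73.5 to 77.3%), 29.2% in RES (24.7 to 33.9%) and 32.6% in CON (28.5 to 36.9%). Over all miRNA reads this share was 9.98% in OVER, 9.17% in RES and 6.75% in CON. Among the 56 ovine-named miRNAs with at least 100 reads in every library, and by named reads alone, oar-mir-127 ranked 2 by its short share in OVER, 4 in RES and 3 in CON. The short share was higher in OVER than in CON for 51 of the 56, by a median of 4.28 percentage points, and for oar-mir-127 it was higher by 25.4 points, which ranked 5. oar-mir-136 had a short share of 1.10% in OVER, 2.76% in RES and 0.784% in CON. In the whole libraries, reads of 20 nt or shorter were 29.6% of all reads in OVER, 10.3% in RES and 5.98% in CON. The level of oar-mir-127 was 1054 CPM in OVER, 183 CPM in RES and 314 CPM in CON. The part of the libraries' short reads in these levels was not tested.

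**Figure D3:**
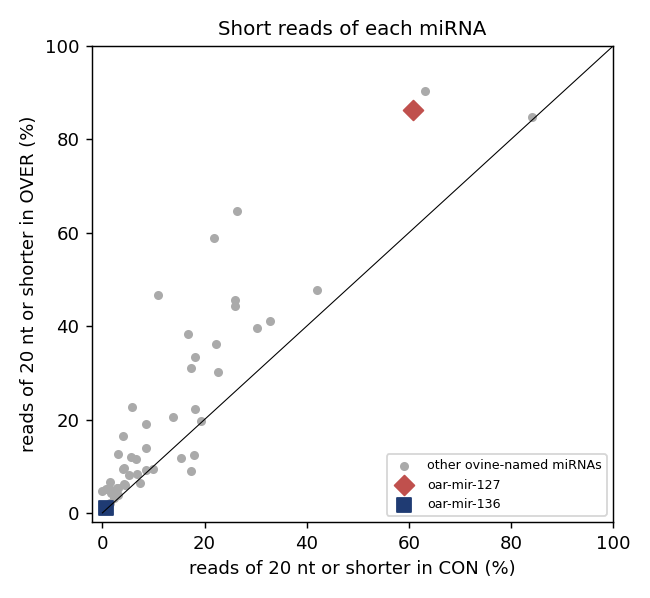
Share of named reads of 20 nt or shorter in OVER (y axis, %) against CON (x axis, %) for the 56 ovine-named miRNAs with at least 100 reads in every library; the line marks equal shares. oar-mir-127 lies at 86.2% in OVER and 60.8% in CON, and oar-mir-136 lies near the origin at 1.10% and 0.784%.

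The ratio of oar-mir-127 to the class differed between short and long reads. With reads of 20 nt or shorter only, scaled among reads of those lengths, the log2 ratio of OVER to CON was 1.35. With reads of 21 nt or longer only, scaled among those reads, it was 0.30, from 245 reads in OVER and 105 in CON. That is no longer past 2-fold, and its interval includes 0 (-0.04 to 0.64). For OVER against RES the ratio was 2.68 with the short reads and 0.80 with the long ones. For RES against CON it was -1.33 with the short reads and -0.50 with the long ones. Both length ranges were chosen after the data were seen.

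Part of the longer miR-127 reads carried no annotation at all. Reads that start with the first 16 nt of the 20 nt form numbered 2000 in OVER, 394 in RES and, in CON, 262 with the name and the unannotated ones. In all, 264 in OVER, 174 in RES and 232 in CON were unannotated, and all of the unannotated reads were flagged as not matching the genome. That is 13.2% in OVER (11.7 to 14.8%), 44.2% in RES (39.2 to 49.2%) and 47.0% in CON (42.5 to 51.5%). Over 55 miRNAs searched in the same way the median was 0.951% in OVER, 2.05% in RES and 1.58% in CON, and oar-mir-127 ranked 2 in each, after oar-mir-299. Of 386 such oar-mir-136 reads in OVER, 256 in RES and 181 in CON, 0 were unannotated, with exact upper bounds of 0.951% in OVER, 1.43% in RES and 2.02% in CON.

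The commonest unannotated read was the 24 nt form, which is the 22 nt form followed by a further pair of T. It had 163 reads in OVER, 106 in RES and 137 in CON. In RES and CON it had the most reads of any miR-127 sequence, above the 20 nt form with 84 reads in RES and 135 in CON. In both libraries the counts are too close to rank. Of the reads that reach the end of the 22 nt form, 64.9% in OVER, 63% in RES and 72.3% in CON went on with T alone. A further 67 such reads in OVER, 56 in RES and 65 in CON went on with another run of A and T, and 60 in OVER, 33 in RES and 19 in CON ended at base 22. The form with 1 added T was flagged as matching the genome and the form with 2 added T was not. Such 3′ tails of U or A are known to be added to miRNAs after processing, and whether each added base here is absent from the sheep gene was not tested, as no genome of the files' build was at hand.

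**Figure D4:**
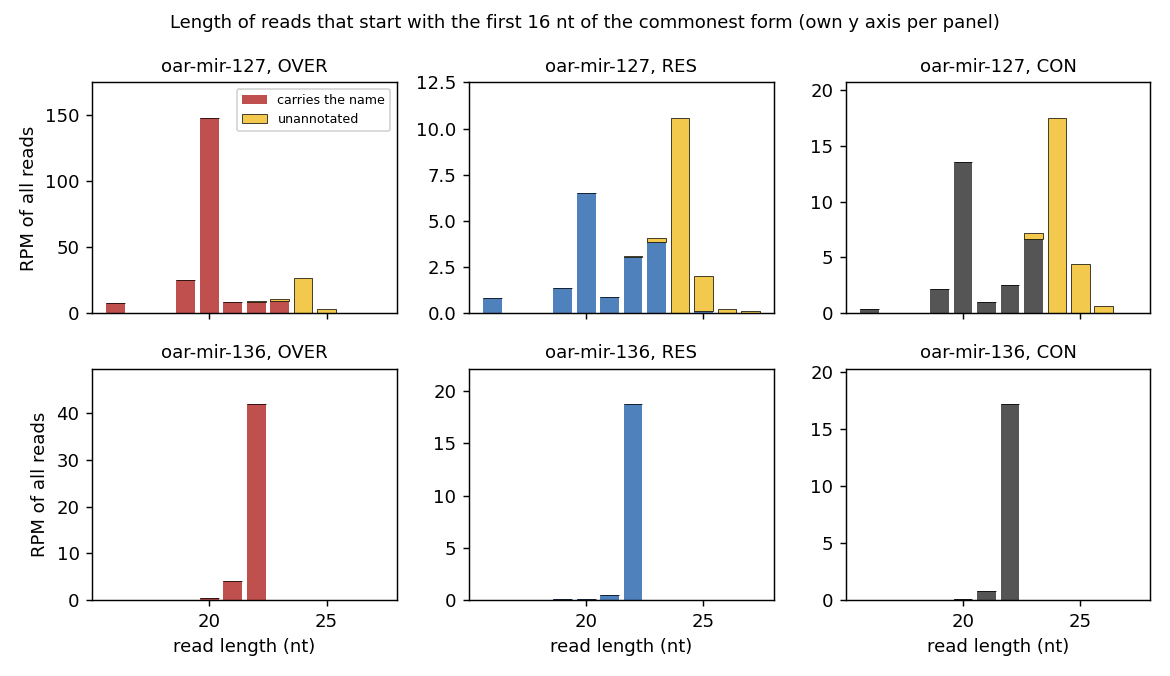
Length of reads that start with the first 16 nt of the commonest form of oar-mir-127 (upper row) and oar-mir-136 (lower row), in RPM of all reads, for OVER, RES and CON; each panel has its own y axis. Yellow marks unannotated reads and the other colour those that carry the name. oar-mir-127 peaks at 20 nt in OVER and at 24 nt in RES and CON, where the reads are unannotated, and oar-mir-136 peaks at 22 nt throughout.

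With the unannotated reads added, oar-mir-127 was still higher in OVER, by less. Counted by the first 16 nt, it had 241 RPM in OVER, 29.9 RPM in RES and 49.5 RPM in CON. The log2 ratio within the class was 1.17 for OVER against CON (1.03 to 1.32), 2.03 for OVER against RES (1.88 to 2.19) and -0.86 for RES against CON (-1.05 to -0.67). Split by length, the reads of 20 nt or shorter stood at 182 RPM in OVER, 8.74 RPM in RES and 16.1 RPM in CON. Those of 21 nt or longer stood at 59.2 RPM in OVER, 21.2 RPM in RES and 33.4 RPM in CON. Within the class, scaled over all lengths, the longer reads were slightly lower in OVER than in CON (log2 ratio -0.28, -0.49 to -0.08). The shorter ones were 5.22-fold higher (2.38, 2.15 to 2.63). In RES both were lower than in CON, the longer reads by a log2 ratio of -0.79 and the shorter ones by -1.02.

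**Figure D5:**
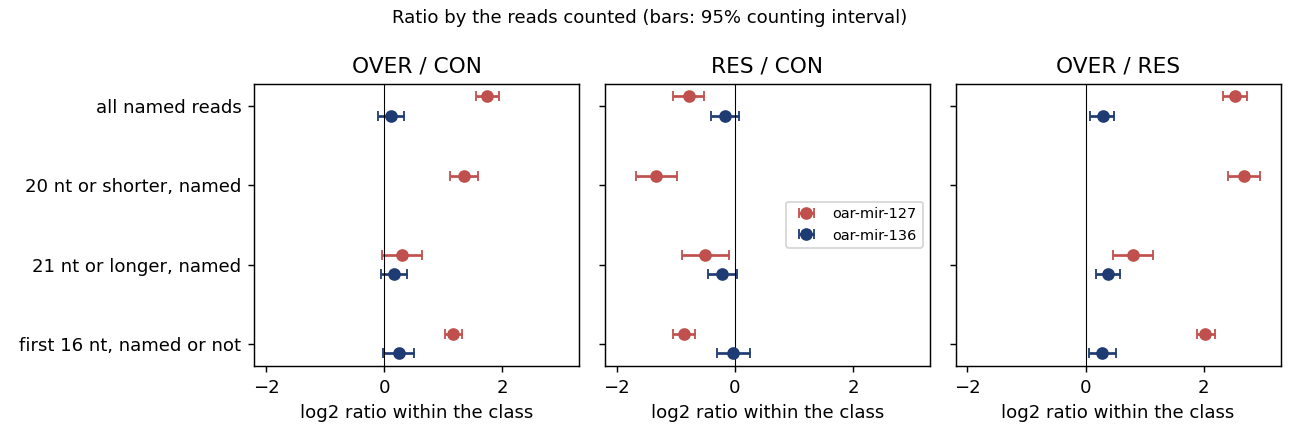
Log2 ratio within the miRNA class of oar-mir-127 and oar-mir-136 according to which reads are counted, with 95% counting intervals; oar-mir-136 has too few reads of 20 nt or shorter to be shown. Each selection of reads has its own miRNA total and TMM factors, so the scaling changes with the reads. For OVER over CON, oar-mir-127 lies at 1.75 with all named reads and at 1.35 with short ones. It lies at 0.30 with long ones and at 1.17 with all reads that share its first 16 nt. In the same comparison oar-mir-136 stays between 0.11 and 0.25.

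Of the arms of the hairpin, nearly all oar-mir-127 reads came from the 3′ arm, with 99.3% in OVER, 99.6% in RES and 99.3% in CON. The 5′ arm had 10 reads in OVER, 1 in RES and 2 in CON. oar-mir-136 reads were more evenly spread, with 11.8% from the 5′ arm in OVER, 11% in RES and 15.7% in CON. On its 3′ arm, the start 1 base later held 17.5% of reads in OVER (14.2 to 21.2%), 11.4% in RES (7.96 to 15.6%) and 15.8% in CON (11.2 to 21.4%), and these intervals overlap. On its 5′ arm, the start 3 bases earlier held 39 of 64 reads in OVER, 12 of 36 in RES and 31 of 40 in CON. As shares these are 60.9% in OVER (47.9 to 72.9%), 33.3% in RES (18.6 to 51.0%) and 77.5% in CON (61.5 to 89.2%), so that the RES and CON intervals do not overlap, while that of OVER overlaps both.

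The remaining 5 were too rare to compare. oar-mir-493 had 23 reads in OVER, 20 in RES and 10 in CON, with log2 ratios of 0.22 for OVER against CON (-0.91 to 1.46) and 0.47 for RES against CON (-0.69 to 1.73). oar-mir-432 had 20 reads in OVER, 13 in RES and 16 in CON, with log2 ratios of -0.66 (-1.68 to 0.39) and -0.83 (-2.0 to 0.32) in the same comparisons. All these intervals include 0. oar-mir-370, which in human liver cells is known to repress CPT1A, had 5 reads in OVER, 4 in RES and 4 in CON. oar-mir-433 had 5 reads in OVER, 1 in RES and 3 in CON. oar-mir-431, which in mouse muscle is known to repress Pax7, had 1 read in OVER, 1 in RES and 2 in CON. For oar-mir-665 the 0 reads have an exact upper bound of 2.67 unscaled CPM in OVER, 2.41 in RES and 4.40 in CON.

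The other DLK1-DIO3 miRNAs were counted as a list. RefSeq places all 46 of those named here on the DIO3 side of RTL1, and 29 of them had enough reads in OVER and CON. Of these 29, 4 were 2-fold higher and 1 was 2-fold lower in OVER, beside 10.5% higher and 9.21% lower over all 76 miRNAs. The median log2 ratio was 0.26 beside 0.03 over all 76. The highest were oar-mir-380 (1.28) and oar-mir-412 (1.20), and the lowest were oar-mir-543 (-2.07) and oar-mir-323a (-0.90). In RES 28 were compared with CON, 0 were 2-fold apart beside 21.6% of all 74, 23 were above CON and 5 below, and the median was 0.48 beside 0.02 over all 74. The ends were oar-mir-3958 (0.89), oar-mir-323a (0.83), oar-mir-3959 (-0.32) and oar-mir-409 (-0.60), and oar-mir-127 at -0.78 lay below them all. For OVER against RES the median of 31 was -0.12 beside 0.09 over all 80, and oar-mir-380 (1.31) and oar-mir-369 (0.88) were the highest and oar-mir-323b (-2.26) and oar-mir-543 (-2.09) the lowest. At least 2-fold apart were 1 higher and 3 lower in OVER, beside 18.8% and 8.75% of all 80. In RPM 24 of the 29 were at least 2-fold higher in OVER than in CON, beside 64.5% of all 76.

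The miRNAs whose pattern over the 3 libraries was most like that of oar-mir-127 were oar-mir-26b, oar-mir-23a, oar-mir-23b, oar-mir-380 and oar-mir-152. Likeness was the distance between log2 CPM values in OVER, RES and CON, each miRNA centred on its own mean, over 79 candidates with at least 100 reads in all. The distances were 0.70, 0.84, 0.84, 0.87 and 1.06 in that order, against a median of 1.84. oar-mir-26b had 2592 CPM in OVER, 733 CPM in RES and 1494 CPM in CON. Its short share was 90.4% in OVER, 90.9% in RES and 63.1% in CON. A read with more than 1 name counts for each, so these 5 need not be separate patterns. oar-mir-23a and oar-mir-23b had near-equal reads, with 1902 and 1871 in OVER, 405 and 402 in RES, and 644 and 638 in CON. The log2 ratio of OVER to CON was 0.80 for oar-mir-26b but -0.66 for oar-mir-26a, and how many reads this pair shares was not counted. The short shares of oar-mir-23a were 44.4% in OVER, 47.2% in RES and 25.9% in CON, and those of oar-mir-152 were 8.16% in OVER, 6.03% in RES and 5.23% in CON. Of the 5, only oar-mir-380 belongs to the same imprinted domain.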

How the data were processed

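The deposited tables, 1 per sample, list each distinct sequence with its length in nt, its count of reads, a genome flag and an annotation, per the file headers. The authors deposited these counts without normalization. Of tools, edgeR alone appears in the submitters' processing notes. For the aligner, the annotation tool, the mismatch limit and the build, nothing is given in the sources used here. Within a group the 3 tables had the same sequences, counts and flags, and the annotation differed in 0 to 3 sequences, none of them of the miRNAs described.

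Antisense terms were left out. TMM factors were computed over the 105 ovine names with the miRNA class as library size (1.220 in OVER, 0.805 in RES and 1.018 in CON). A read with more than 1 name was added to each of them, so names that share reads count separately among those at least 2-fold apart. A miRNA entered a comparison where both libraries summed to 100 reads or more, and 2-fold took the place of a test, since 1 library a group leaves none. Intervals of log2 ratios were derived from an exact binomial interval for the first library's part of the summed reads. A read was given to an arm by a shared stretch of 8 nt with its commonest sequence, and a start by its first 8 bases. The members, lists and alternatives were chosen with earlier results of these data known. The named genes are all members, the 5 nearest patterns, and the highest and lowest 2 of the other domain miRNAs. Alternatives were other scaling, read lengths, genome-matching reads, split names, no filter and 1 start, and, added after seeing the data, 2 length ranges and reads sharing the first 16 nt. The calculation was tested on simulated counts. Python 3.11.15, edgeR 4.0.16, DESeq2 1.42.0 and SciPy 1.17.1 were used. PCR copies are not separated, so the intervals are too narrow by an unknown amount.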

Additional observations from a re-analysis of the deposited data

Results flagged for a closer look

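Unannotated reads that start with the first 16 nt of oar-mir-127 lie outside the named reads compared above and stood at 31.9 RPM in OVER, above the 23.2 RPM in CON, and at 13.2 RPM in RES. That order of OVER and CON holds in RPM only: for every 100 miRNA reads there were 0.0191 such reads in OVER, 0.0114 in RES and 0.0276 in CON. Reads annotated as antisense to the miRNAs around RTL1 were found in OVER alone, with 9 reads of 15 to 18 nt in OVER, 0 in RES and 0 in CON, beside 77 reads antisense to any ovine-named miRNA in OVER, 26 in RES and 21 in CON. They name oar-mir-127, oar-mir-370, oar-mir-432, oar-mir-493 and oar-mir-665. The part of the greater number of short reads in OVER was not tested.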

How the results depend on the processing

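oar-mir-127 kept its direction under every alternative tried but 1. Among reads of 21 nt or longer that share its first 16 nt, annotated or not, the log2 ratio of OVER to CON turned to -0.28. The shorter of such reads gave 2.38. Both were scaled over all lengths. The ratios given next for reads of 20 nt or shorter and of 21 nt or longer were scaled within those lengths, so the 2 kinds differ in scaling too. For OVER against CON its log2 ratio of 1.75 was 2.01 as a plain share of miRNA reads, 3.0 in RPM, 1.35 with reads of 20 nt or shorter, 0.30 with reads of 21 nt or longer and 1.17 with all reads sharing its first 16 nt. For RES against CON, -0.78 was -1.12 as a plain share, -1.33 with the short reads and -0.50 with the long ones. For OVER against RES, 2.53 was 3.13 as a plain share, 3.65 in RPM, 0.80 with the long reads and 2.03 with the shared first 16 nt, or 3.4 and 0.51 for the shorter and longer of these. DESeq2 size factors, a 16 to 24 nt window, genome-matching reads, split names, factors from 2 libraries and the commonest 5′ start left it inside its counting interval. The number of miRNAs at least 2-fold apart was 15 for OVER against CON, 49 in RPM and 25 with no filter beyond 1 read. It was 16 for RES against CON and 5 with the short reads, where 38 miRNAs had enough reads in place of 74, and 22 for OVER against RES and 53 in RPM. The causes were not tested. The length ranges and the first 16 nt were chosen after seeing the data. No paired analysis was possible because the 3 tables of a group hold the same reads and were counted as 1 library, and for that reason no replicate could be left out.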

Other observations

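Unannotated reads with the first 16 nt of a named miRNA were not limited to miR-127. Their share of such reads was 57.8% in OVER, 63.8% in RES and 63.6% in CON for oar-mir-299, another DLK1-DIO3 miRNA. It was 12.6% in OVER, 33.4% in RES and 37.4% in CON for oar-mir-106b, and 13.0% in OVER, 27.7% in RES and 29.2% in CON for oar-mir-125b. For oar-mir-127, oar-mir-299, oar-mir-106b and oar-mir-125b the share was lowest in OVER. The median over the 55 miRNAs searched was lowest there too, with 0.951% in OVER, 2.05% in RES and 1.58% in CON. oar-mir-299, oar-mir-106b and oar-mir-125b were named after their values were seen.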
